A study of Homo sapiens with 6 samples.

Results

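Caspases, inhibitor of apoptosis proteins (IAPs) and apoptosome genes were followed in MM1.S, a line of human multiple myeloma cells, after knockdown of beta-catenin. The set named 8 genes: CASP8, CASP9, CFLAR, APAF1, DIABLO, XIAP, BIRC2 and BIRC3. Its members were every probe set, the group of short probes that reads a transcript on an Affymetrix array, that the array annotation pairs with such a symbol. There were 32 of them, for 7 genes, among 54613 non-control probe sets and 19775 genes with a probe set of a single symbol. The annotation used gave no probe set for BIRC3, which was not analysed here.

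The knockdown group held 3 arrays of cells infected with a lentivirus (pKLO in the labels) carrying a beta-catenin shRNA, and the control group 3 arrays of cells infected with the control shRNA virus. All 6 arrays came from cells sorted for the GFP marker of the virus, so infection and sorting are shared by both groups. The sample titles number the arrays of each group as biological replicates. The labels describe cultures in triplicate and name no separate infections, so p-values measure the spread between these cultures. The knockdown is an RNA interference model in 1 cell line, and neither the hairpin sequence nor the number of hairpins is given in the labels used here.

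Caspases are proteases that carry out apoptosis. In the extrinsic route a death receptor assembles a complex with FADD in which caspase-8 is activated, and c-FLIP, the product of CFLAR, a caspase-8 relative without protease activity, controls that step. In the intrinsic route cytochrome c leaves mitochondria and binds APAF1, which forms the apoptosome and activates caspase-9. XIAP inhibits caspases directly, BIRC2 (cIAP1) is a ubiquitin ligase of TNF receptor complexes, and SMAC, the product of DIABLO, leaves mitochondria and binds IAPs. In myeloma, cIAP1 is also known as a brake on the non-canonical NF-kB pathway.

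Values are the deposited log2 expression values, called levels below, and a change is knockdown minus control on that log2 scale. The scale has a floor at 4, so a change of a dim probe set is understated. A gene or probe set was called at an adjusted p under 0.05 (limma with Benjamini-Hochberg adjustment). Adjustment ran over all 54613 probe sets for a probe set, and over 12939 genes for a gene read by its brightest probe set. A probe set counted as bright enough, here termed above the filter, if its mean over the 6 arrays reached 5.49, the midpoint of the ranked means of all probe sets. A bulk culture cannot tell fewer cells with a transcript from less of it per cell.

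The targeted transcript was lower on its brightest probe set. CTNNB1, the gene of beta-catenin, had levels of 6.39, 6.53 and 6.34 in the knockdown arrays, against 7.82, 7.67 and 7.75 in the control arrays, while a dimmer probe set changed by -0.07 and was not called. The remaining CTNNB1 probe set was called higher in the knockdown, by 0.33 and without overlap (limma, adjusted p = 0.0390 over probe sets). All 7 plasma cell and myeloma markers lay above the filter, with mean levels of 7.20 to 10.95 in the knockdown and 6.81 to 10.87 in the control. Their means were lower in the knockdown for 4 of the 7, and the largest difference was that of MAF, a myeloma transcription factor, at 10.95 in the knockdown and 9.77 in the control. The summed signal, MAF included, was 6703 to 7101 in the knockdown and 5981 to 6261 in the control arrays. It was not taken without MAF, so it does not show a rise of the markers as a set. The part of these marker differences in the results below was not tested. Of the other marker lists, 2 of 4 T and NK cell, 2 of 3 myeloid, 3 of 3 fibroblast, 1 of 3 epithelial and 1 of 2 erythroid genes lay above the filter, the brightest being HBB with means of 9.11 in the knockdown and 8.86 in the control. Array medians were 5.50 to 5.54 in the knockdown and 5.44 to 5.50 in the control.

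Across the family, most probe sets of CFLAR, XIAP and CASP8 were higher in the knockdown, the SMAC transcript was lower, and caspase-9 and APAF1 gave no call. Of the 32 member probe sets, 18 were called higher and 1 lower, and 13 were not called. Over all 54613 probe sets, 13.3% were called higher and 9.95% lower, which is 7259 and 5434. After centring on array medians these were 6217 higher and 6964 lower, so the balance over all probe sets turned, while the members stayed at 18 and 1. The 18 belonged to 3 genes only, 11 to CFLAR, 5 to XIAP and 2 to CASP8, and probe sets of a gene read overlapping transcripts, so they are not independent. Of the 24 member probe sets above the filter, 16 were higher and 1 lower, where 21.2% and 17.1% of all probe sets above the filter were. The median change was 0.42 over the 32 members and 0.04 over all probe sets. The groups did not overlap for 20 of the 32, against 37.2% of all probe sets.

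**Figure D1:**
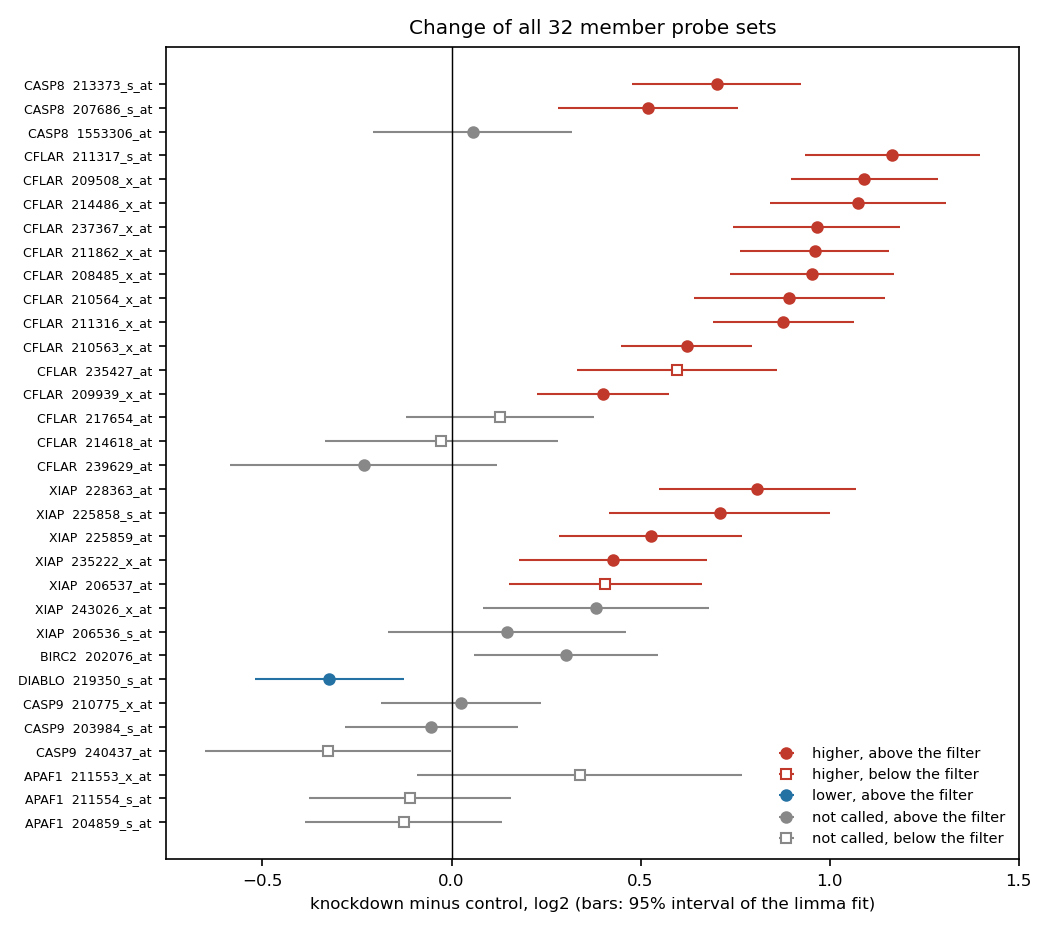
Change of each of the 32 member probe sets, knockdown minus control on the log2 scale (x axis), ordered by gene (y axis); bars are 95% intervals of the limma fit, colours give the call and open squares lie below the filter. CFLAR fills the right of the plot, with 11 of its 14 probe sets called higher and a largest change of 1.17, and DIABLO alone is called lower.

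Read gene by gene, 6 members entered the test and APAF1, with all 3 probe sets below the filter, did not. CASP8, CFLAR, XIAP and BIRC2 were called higher and DIABLO lower, and CASP9 was not called. Among the 12939 genes tested, 25.3% were called higher and 22.0% lower, so a call by itself is common in this comparison. The counts behind these shares, 3273 higher and 2841 lower, became 2765 and 3316 after centring on array medians and 3114 and 3203 under quantile normalization.

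**Figure D2:**
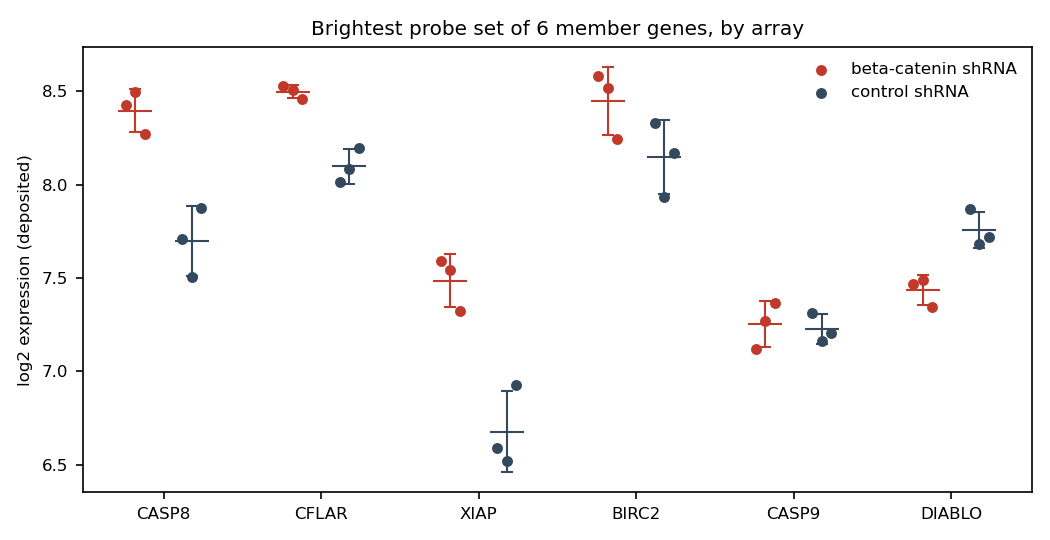
Levels (y axis, deposited log2 values) of the brightest probe set of the 6 tested members in each array, knockdown left of control; points are arrays, the horizontal mark is the mean and the bar 1 SD (n = 3). CASP8, CFLAR and XIAP lie higher in every knockdown array than in any control array, DIABLO lies lower, and BIRC2 and CASP9 overlap.

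CASP8, the initiator protease of the death receptor complex, was higher in all 3 knockdown arrays. Its brightest probe set, 213373_s_at, had levels of 8.43, 8.49 and 8.27 in the knockdown arrays, against 7.71, 7.50 and 7.88 in the control arrays. The groups did not overlap. The means were 8.40 ± 0.11 in the knockdown and 7.70 ± 0.19 in the control (SD, n = 3 each), a change of 0.70, which is 1.63-fold (SE 0.10; limma, adjusted p = 1.55e-06 over genes). The next probe set, 207686_s_at, had 6.94, 6.95 and 6.89 in the knockdown, against 6.25, 6.36 and 6.61 in the control, again without overlap. Its change was 0.52 (SE 0.11; limma, adjusted p = 0.00321 over probe sets), a call lost without variance moderation (adjusted p = 0.0612). The dimmest, 1553306_at, stood close to the filter at 5.71, 5.53 and 5.31 in the knockdown, against 5.48, 5.43 and 5.48 in the control, and changed by 0.06, with a 95% interval of -0.21 to 0.32. If probe sets whose names carry neither _x_ nor _s_, the marks of probes shared between transcripts or genes, were preferred, CASP8 would be read by 1553306_at and would not be called (limma, adjusted p = 0.756).

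CFLAR, the gene of c-FLIP, which competes with caspase-8 for FADD in its short forms and pairs with caspase-8 in its long form, showed the widest set of rises. The array carries 14 probe sets for it, 11 above the filter. Of the 14, 11 were called higher and none lower, with changes of 0.40 to 1.17 among the called ones (median 0.95), or 1.32-fold to 2.24-fold, and adjusted p of 7.75e-07 to 0.00253 (limma, over probe sets). In all of these 11 the lowest knockdown array exceeded the highest control array, by 0.27 to 0.97.

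The brightest CFLAR probe set moved least of the called ones. This was 209939_x_at, with levels of 8.53, 8.51 and 8.46 in the knockdown arrays, against 8.01, 8.08 and 8.20 in the control arrays. It changed by 0.40, which is 1.32-fold (SE 0.09; limma, adjusted p = 5.31e-04 over genes). By contrast 211317_s_at had 7.59, 7.55 and 7.43 in the knockdown arrays, against 6.18, 6.38 and 6.50 in the control arrays, a change of 1.17 (SE 0.11; limma, adjusted p = 2.24e-06 over probe sets). Next to it stood 209508_x_at, with 7.91, 7.87 and 7.76 in the knockdown, against 6.75, 6.72 and 6.78 in the control, a change of 1.09 (SE 0.09; limma, adjusted p = 7.75e-07 over probe sets). On both, every knockdown array stood far above every control array. A gene-level reading by the brightest probe set thus gave a smaller CFLAR change than the mean over all 14, which was 0.68 (limma, adjusted p = 1.17e-05).

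A further 6 CFLAR probe sets, 208485_x_at, 210564_x_at, 211316_x_at, 211862_x_at, 214486_x_at and 237367_x_at, changed by 0.88 to 1.08, and 210563_x_at changed by 0.62. All 10 probe sets with an _x_ or _s_ mark were called higher. Of the 4 without a mark, 1 was called: 235427_at, below the filter, had 5.56, 5.74 and 5.55 in the knockdown, against 4.85, 5.05 and 5.17 in the control, a change of 0.60 (SE 0.12; limma, adjusted p = 0.00253 over probe sets). The other unmarked sets were not called. The 239629_at set, above the filter, had 6.44, 6.39 and 5.85 in the knockdown, against 6.58, 6.15 and 6.64 in the control, overlapping groups with a change of -0.23 and a 95% interval of -0.59 to 0.12. The dim 217654_at and 214618_at changed by 0.13 and -0.03.

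Fitted changes of the CFLAR probe sets above the filter ran from -0.23 on 239629_at to 1.17 on 211317_s_at, and this spread is given with no test. Which exons or splice forms each set reads was not analysed here, so no c-FLIP form is assigned to a value.

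In the RefSeq gene table for GRCh38.p14, CFLAR, CASP10 and CASP8 are consecutive protein-coding genes on chromosome 2. The gene between them gave no call: CASP10, a close relative of caspase-8, had levels of 7.42, 7.40 and 7.36 in the knockdown, against 7.34, 7.31 and 7.49 in the control. Its change was 0.01, with a 95% interval of -0.20 to 0.21 (limma, adjusted p = 0.955 over genes).

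Promoter windows, 250 bases before to 50 after an annotated start, were read from RefSeq (GRCh38.p14) because probe sets of CASP8 and CFLAR were higher together. RefSeq gave 19 windows for the 7 members. Searched on both strands were the NF-kB consensus, the AP-1 motif TGANTCA, the cyclic AMP response element TGACGTCA, TGATGNAA of ATF4 sites and CTTTGAT of TCF/LEF sites. The first window of each member that held a match follows, 5' to 3' on the gene's strand, with the match in capitals.
CFLAR, chr2:201118466-201118765, + strand: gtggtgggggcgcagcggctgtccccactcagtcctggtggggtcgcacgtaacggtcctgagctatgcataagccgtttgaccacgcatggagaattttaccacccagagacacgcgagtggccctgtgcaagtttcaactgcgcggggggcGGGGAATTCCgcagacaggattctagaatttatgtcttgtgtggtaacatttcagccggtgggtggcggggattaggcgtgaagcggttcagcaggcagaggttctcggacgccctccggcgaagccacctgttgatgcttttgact
CASP8, chr2:201257785-201258084, + strand: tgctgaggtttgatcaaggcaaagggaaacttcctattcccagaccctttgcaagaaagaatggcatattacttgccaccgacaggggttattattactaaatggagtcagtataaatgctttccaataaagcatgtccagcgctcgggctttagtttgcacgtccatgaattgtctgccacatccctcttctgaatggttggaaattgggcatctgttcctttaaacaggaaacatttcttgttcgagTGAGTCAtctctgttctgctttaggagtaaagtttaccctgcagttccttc
BIRC2, chr11:102346964-102347263, + strand: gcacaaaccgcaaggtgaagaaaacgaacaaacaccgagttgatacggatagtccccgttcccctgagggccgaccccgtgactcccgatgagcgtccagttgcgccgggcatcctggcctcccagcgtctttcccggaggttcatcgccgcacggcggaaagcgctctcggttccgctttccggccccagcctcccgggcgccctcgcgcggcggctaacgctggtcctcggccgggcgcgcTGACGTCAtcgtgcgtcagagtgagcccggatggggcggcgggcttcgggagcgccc

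The CFLAR window holds an NF-kB consensus match, GGGGAATTCC, starting 97 bases before the start site, which 5.91% of all 35116 windows hold on either strand. The CASP8 window holds TGAGTCA across its start site, and 7.71% of all windows hold TGANTCA. A further CASP8 window and a further CFLAR window also held TGANTCA, as TGACTCA in CASP8 and as TGAATCA in CFLAR. The BIRC2 window holds TGACGTCA across its start site, a motif in 1.85% of all windows. A further BIRC2 window overlaps it and holds the same match, 167 bases before its own start. No member window held CTTTGAT or TGATGNAA, found in 2.62% and 3.62% of all windows, and none of these 5 motifs was found in the windows of XIAP, DIABLO, CASP9 or APAF1. A match describes the letters and is no measure of binding.

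XIAP, the IAP that inhibits caspases by direct binding, was higher in the knockdown on most of its probe sets. Its brightest, 228363_at, had levels of 7.59, 7.54 and 7.32 in the knockdown arrays, against 6.59, 6.52 and 6.93 in the control arrays. The groups did not overlap, and control replicate 3 stood above the other controls. The means were 7.49 ± 0.14 in the knockdown and 6.68 ± 0.22 in the control (SD, n = 3 each), a change of 0.81, which is 1.75-fold (SE 0.12; limma, adjusted p = 9.82e-07 over genes).

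Of the 7 XIAP probe sets, 5 were called higher and none lower, and all 7 had a positive change, from 0.15 to 0.81. Among the called ones, 225858_s_at had 6.90, 6.97 and 6.56 in the knockdown, against 6.07, 5.90 and 6.33 in the control, a change of 0.71 (SE 0.14; limma, adjusted p = 0.00147 over probe sets). The 225859_at set changed by 0.53 and 235222_x_at by 0.43, where the lowest knockdown array was 0.05 above the highest control array. The call of 235222_x_at was lost without knockdown replicate 1 (adjusted p = 0.0823), knockdown replicate 2 (0.0786) or control replicate 1 (0.0513). The 243026_x_at set changed by 0.38 with overlapping groups and missed the threshold (limma, adjusted p = 0.0634 over probe sets), but passed it without control replicate 3 (0.00933). The dim 206537_at changed by 0.41 and was called, though not without knockdown replicate 2 (adjusted p = 0.116), knockdown replicate 3 (0.0604) or control replicate 3 (0.0820). That call was also lost under quantile normalization (0.0545), cyclic loess (0.0519) and no moderation (0.0803), and 206536_s_at changed by 0.15 and was not called. Without moderation the calls of 225858_s_at (adjusted p = 0.0863), 225859_at (0.0613) and 235222_x_at (0.138) were lost too, and that of 228363_at was kept. The 3 unmarked XIAP probe sets were all called. The brightest XIAP set, 228363_at, is itself unmarked, so preferring unmarked sets left the gene's change at 0.81.

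BIRC2, cIAP1, has a single probe set and lay at the edge of the test. Its levels were 8.58, 8.52 and 8.24 in the knockdown arrays, against 8.33, 7.94 and 8.17 in the control arrays, and the groups overlapped. The change was 0.30 (SE 0.11), with a 95% interval of 0.09 to 0.52. It was called over genes (limma, adjusted p = 0.0197) and not over all probe sets (limma, adjusted p = 0.0726). The call over genes was lost without knockdown replicate 1 (adjusted p = 0.128), without knockdown replicate 2 (0.0782) and without control replicate 2 (0.129).

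DIABLO, the gene of the IAP-binding protein SMAC, was the member that fell. Its single probe set had levels of 7.47, 7.49 and 7.34 in the knockdown arrays, against 7.87, 7.68 and 7.72 in the control arrays, which did not overlap. It fell by 0.32 on the log2 scale, which is 1.25-fold (SE 0.10; limma, adjusted p = 0.00886 over genes and 0.0199 over probe sets). The direction was opposite to that of XIAP. Over probe sets the call was lost without knockdown replicate 1 (adjusted p = 0.0595), knockdown replicate 3 (0.0742) or control replicate 1 (0.0649), and over genes it was kept without any of the 6 arrays.

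The apoptosome genes gave no call. CASP9, the initiator that APAF1 activates, had levels of 7.12, 7.27 and 7.37 in the knockdown arrays, against 7.31, 7.16 and 7.20 in the control arrays, on its brightest probe set. The groups overlapped, and the change of 0.03 (SE 0.10) had a 95% interval of -0.19 to 0.24 (limma, adjusted p = 0.863 over genes), which leaves out a change as large as that of CASP8. Its sign turned to -0.03 after centring on array medians. The second set, 203984_s_at, changed by -0.05, and the dim 240437_at changed by -0.33 (limma, adjusted p = 0.146 over probe sets).

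APAF1, the scaffold of the apoptosome, was read by 3 probe sets whose levels lay between 4.50 and 5.59 in every array, below the filter on their means. They changed by 0.34, -0.11 and -0.13, and the adjusted p was 0.265 to 0.598 (limma, over probe sets). The set with the positive change, 211553_x_at, had a low control replicate 2 at 4.50 beside 5.40 and 5.30 in the other controls. The 95% intervals were -0.09 to 0.77 for 211553_x_at, -0.38 to 0.16 for 211554_s_at and -0.39 to 0.13 for 204859_s_at.

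For the 18 member probe sets called higher, the order of arrays within each group was read, with no test. They belong to CFLAR, XIAP and CASP8 only, share the same arrays and were picked by their calls, so they are not independent. In 16 of the 18 called probe sets (88.9%), knockdown replicate 3 was the lowest of the knockdown arrays, and in 13 (72.2%) control replicate 3 was the highest of the controls. Over all 7259 probe sets called higher these shares were 55.3% and 44.7%. Without knockdown replicate 3, all 11 CFLAR probe sets called higher were still called.

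**Figure D3:**
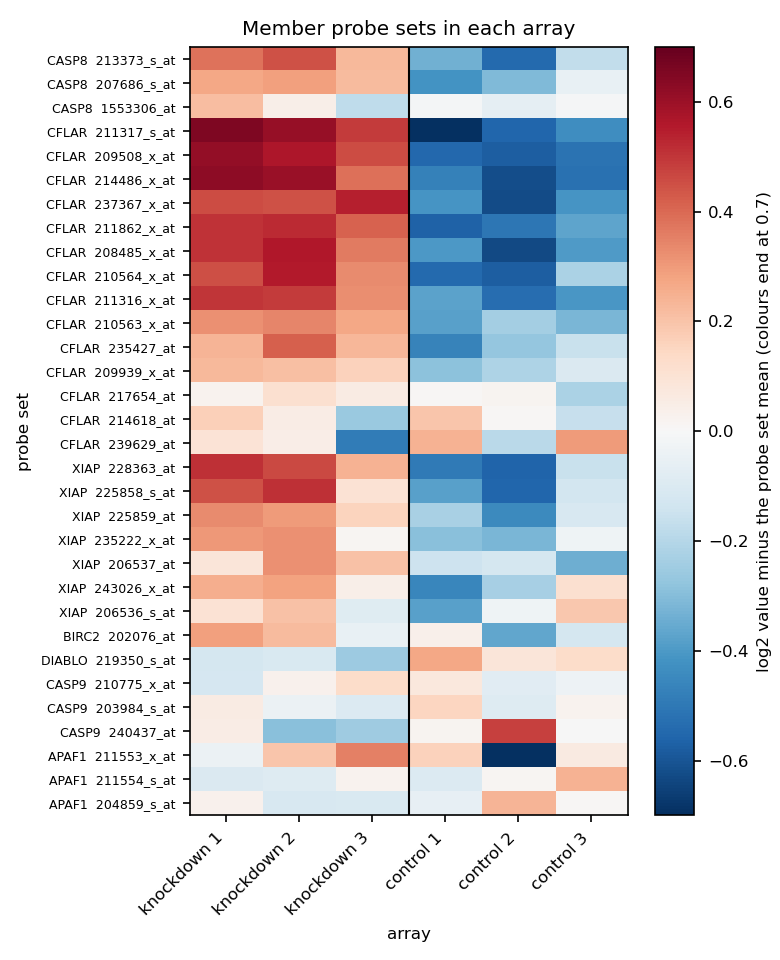
Log2 value of each member probe set (y axis) in each array (x axis, knockdown left of control) minus that probe set's mean over the 6 arrays. Red is above and blue below the mean; The 18 probe sets called higher are red in all 3 knockdown arrays, least in replicate 3 for 16 of them, and DIABLO is blue there.

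For the 3 called members with the largest changes, the genes with the most similar course over the 6 arrays were found by the root mean square difference of mean-centred levels. For XIAP these were ALDH6A1, C11orf54 and STEAP1, at 0.040, 0.041 and 0.044. For CASP8 they were ZFAND6, XK and MBLAC2, at 0.022, 0.028 and 0.033. For CFLAR, by its brightest probe set, they were UBE3B, RARA and LINC02443, at 0.028, 0.030 and 0.033. The measure describes 6 arrays in 2 groups and was given no test.

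In the wider death pathway, calls went both ways at about the shares found over all genes tested. Of 56 other genes in 8 lists by role, 52 had a probe set in the annotation used and 48 passed the filter. Of these 48, 12 were called higher and 11 lower, where 25.3% and 22.0% of all 12939 genes tested were. The median change was 0.02, against 0.05 over all genes tested. The counts per list below stand beside the same shares and were given no test as sets. Genes of the lists without a probe set in that annotation were not analysed here.

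**Figure D4:**
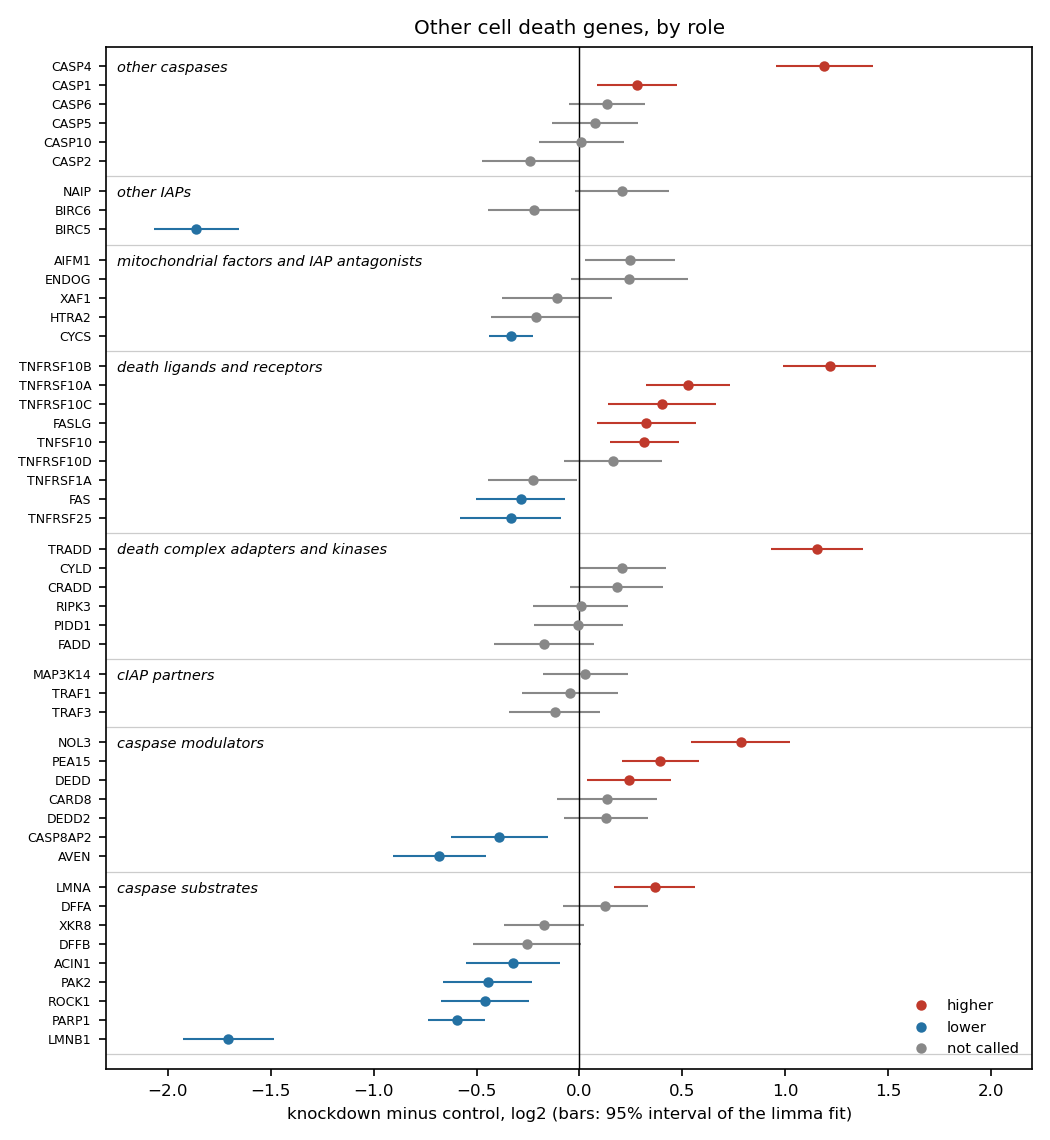
Change of the 48 tested genes of the wider pathway, knockdown minus control on the log2 scale (x axis), by role and gene (y axis); bars are 95% intervals of the limma fit and colours give the call. TNFRSF10B, TRADD and CASP4 lie farthest to the right, and BIRC5 and LMNB1 farthest to the left.

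Of 9 death ligands and receptors tested, 5 were called higher and 2 lower. The 2 lower were the receptors FAS, which fell by 0.29, and TNFRSF25, which fell by 0.33. Neither overlapped between the groups (limma, adjusted p = 0.0272 and 0.0231 over genes). TNFRSF10B, the TRAIL receptor DR5, had levels of 8.02, 8.01 and 7.91 in the knockdown arrays, against 6.85, 6.51 and 6.92 in the control arrays, far apart, with a change of 1.22 (SE 0.11) or 2.32-fold. TNFRSF10A, the TRAIL receptor DR4, rose by 0.53, TNFSF10, the ligand TRAIL, by 0.31 on its brightest probe set and 0.92 on another, and TNFRSF10C, a decoy receptor, by 0.40. The TNFRSF10C call rested on 1 of 4 probe sets and was lost under quantile normalization, under cyclic loess, without knockdown replicate 3 (adjusted p = 0.102) and without control replicate 3 (0.0503). Of 6 adapters and kinases, 1 was higher: TRADD, the adapter of TNF receptor 1, had 7.69, 7.79 and 7.62 in the knockdown, against 6.65, 6.33 and 6.65 in the control, a change of 1.15 (SE 0.11). FADD, the adapter that recruits caspase-8, gave no call, with a change of -0.17 (limma, adjusted p = 0.240).

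Among the other caspases, 2 of 6 were higher and 0 lower. CASP4, an inflammatory caspase that senses lipopolysaccharide, had 7.21, 7.30 and 7.24 in the knockdown, against 6.19, 5.81 and 6.17 in the control, a change of 1.19 (SE 0.11), or 2.28-fold. CASP1, the protease that processes interleukin-1 beta, rose by 0.28, a call lost without knockdown replicate 1 (adjusted p = 0.0986) and without control replicate 2 (0.0599). Of 3 other IAPs, BIRC5, survivin, which acts mainly in mitosis, fell by 1.86, and NAIP and BIRC6 were not called. Of 3 cIAP partners, 0 were called.

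Of 5 mitochondrial factors and IAP antagonists, 1 was lower and 0 higher: CYCS, cytochrome c, had 11.03, 11.05 and 10.92 in the knockdown, against 11.34, 11.36 and 11.31 in the control, and fell by 0.33 (SE 0.05). Another CYCS probe set above the filter rose by 1.03, so the probe sets of this gene disagree. Of 9 caspase substrates, 5 were lower and 1 higher. LMNB1, lamin B1 of the nuclear envelope, fell by 1.71, PARP1, a DNA repair enzyme, by 0.60, the kinase ROCK1 by 0.46 and the kinase PAK2 by 0.45, and the PAK2 call rested on 1 of 6 probe sets. With the mean of all probe sets of a gene, ROCK1 changed by -0.18 (limma, adjusted p = 0.138) and PAK2 by -0.21 (0.0574), and neither was called.

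Of 7 caspase modulators, 3 were higher and 2 lower. NOL3, known as ARC, a CARD protein that restrains caspase-8, rose by 0.78 (SE 0.12) on its brightest probe set and was called higher on all 4. PEA15, a death effector domain protein that binds FADD, rose by 0.39. AVEN, which binds APAF1, fell by 0.68, and CASP8AP2, a caspase-8 associated protein, fell by 0.39, a call lost without knockdown replicate 3 (adjusted p = 0.0607).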

How the data were processed

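Total RNA of 3 beta-catenin shRNA and 3 control shRNA cultures of MM1.S was measured on Affymetrix arrays, with groups and replicate numbers taken from the sample titles. The deposited table of the authors holds a log2 value for each probe set on each array, with a floor at 4 (log2 of 16); a form of log2(signal + 16) was read from the values. Per the submitters' processing notes, MAS5 and PLIER were tools of this study; their roles and the scaling of arrays are not given in the sources used here. A label that speaks of embryos contradicts the cell line and was not used. Values were used as deposited. Of 54675 probe sets, 62 were controls and left out; 41091 had 1 gene symbol, 1801 several and 11721 none. The RefSeq table of GRCh38.p14 held 41037 of the probe sets with 1 symbol, by gene ID.

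Groups were compared with limma 3.58.1 in R 4.3.3 (two-sided test from lmFit and eBayes, variance trend on intensity) over all 54613 probe sets and, with the brightest probe set per gene, over the 12939 of 19775 genes above the filter; precision is limited by the number of arrays. The fit was tested on simulated data. Named were all members, CTNNB1, and up to 4 called genes per list by adjusted p, others only where a comparison needed them, chosen after their values were seen. Members, lists and tests were chosen with earlier results of these data known. Alternatives covered scaling, filters, probe set rules, variance models, offsets of 1 and 64, a replicate block, and leaving out each array.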

Additional observations from a re-analysis of the deposited data

How the results depend on the processing

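The calls of XIAP and DIABLO over genes kept their direction and side of the threshold under every alternative run; that of CASP8 did so except with unmarked probe sets first, and CFLAR turned to -0.23 there, which left 2 member genes called higher in place of 4. Member probe sets called higher numbered 18, and 13 to 20 under the alternatives. Of the lower ones there was 1, and 0 without moderation and with the replicate block, and 0 to 1 with an array left out. Replicate numbers did not pair the samples: deviations of same-numbered arrays correlated at -0.09, -0.26 and -0.30. With the replicate block 2897 genes were called higher and 2597 lower, against 3273 and 2841; of the named genes it ended the call of CASP1 (adjusted p = 0.0659), and of the member probe sets that of DIABLO (0.0631). Without moderation 3916 probe sets were higher and 3178 lower, against 7259 and 5434, and 7 pathway genes were lower in place of 11, which were 17 after centring on array medians; the cause was not tested. The BIRC2 call over genes was also lost after centring (adjusted p = 0.0537), without the intensity trend (0.0508) and without moderation (0.213).

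Signs turned mostly where changes were near 0. CASP9 changed by -0.029 after centring on array medians, by -0.12 with the mean of its probe sets, and by -0.032 to 0.092 with an array left out; its set 210775_x_at, the one read, gave the same values after centring and with an array left out. CASP8 set 1553306_at changed by -0.0031 under quantile normalization and -0.0044 under cyclic loess. With an array left out it ran from -0.039 to 0.16, CASP9 set 203984_s_at from -0.11 to 0.0066, CFLAR set 214618_at from -0.12 to 0.10 and XIAP set 206536_s_at from -0.0055 to 0.28. CYCS turned to 0.27 with the mean of its probe sets. Probe sets near the floor, all 3 of APAF1 among them, are limited by signal over background.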

Other observations

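A gene antisense to CFLAR has its own symbol, CFLAR-AS1, and is no member; it was looked at after the values were seen. Its probe set had levels of 7.18, 6.85 and 6.82 in the knockdown arrays, against 6.23, 6.92 and 6.67 in the control arrays, and the groups overlapped. The change of 0.35 was not called (limma, adjusted p = 0.140 over probe sets). CASP8AP2 was lower on both of its probe sets, by 0.39 and, on a dim one, by 0.52 on the log2 scale.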
